A study of Homo sapiens with 12 samples.

Results

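The expression of 10 genes of BMP and TGF-beta signaling was examined in HCT116 cells, an established human colorectal cancer cell line. Ligands, SMADs, inhibitors and target genes are among them, and all are called feedback genes below for brevity. They were *SMAD6*, *SMAD7*, *SMAD9*, *SMAD3*, *ID1*, *ID2*, *ID3*, *BAMBI*, *BMP2* and *BMP4*, 10 of the 60580 genes listed by symbol in each library. *SMAD6* was noticed for 5-FU responses in opposite directions in the 2 genotypes, and the other 9 genes were chosen around it by their role in the same pathway. The values of *SMAD6* are therefore given as a description, without a test in any comparison. Of the 10 genes, 9 passed the filter of at least 20 counts in at least 1 library that 16123 genes passed, and *BMP2* did not.

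RNA-Seq was performed by the authors on 4 groups, namely cells that were *WT* or *miR-34a/b/c-KO*, each treated for 48 h with 5-FU (4 µM), a thymidylate synthase inhibitor used against colorectal cancer, or with the solvent DMSO. In *miR-34a/b/c-KO* cells (hereafter knockout cells), the genomic stretches that hold miR-34a, miR-34b and miR-34c had been removed with CRISPR/Cas9, whereas *WT* cells had received the Cas9 plasmid without a guide RNA, and cells of both genotypes were expanded from single cells. Both genotypes share the p53-proficient background of HCT116. Whether the 3 biological replicates of a group are different clones or repeated cultures of 1 clone is not given in the sources used here, so that p-values measure the spread between these libraries, and differences between genotypes can include differences between clones. The file labelled *WT* 5-FU replicate 1 repeats the counts of *WT* DMSO replicate 3 and was not used, so that 11 libraries were compared, 2 of them of *WT* cells in 5-FU.

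The libraries held 22831415 to 39064210 counts on genes (median 25698417). Levels are given as counts per scaled library size (CPM, edgeR's usual unit after upper-quartile scaling), as mean ± SD over n libraries. Differences are log2 fold changes from edgeR, each with its standard error (SE), and FDR is its p-value of the quasi-likelihood test, adjusted by Benjamini-Hochberg over all 16123 genes. A gene was called higher or lower at FDR < 0.05 and an absolute fold change > 1.5. *CDKN1A*, the p53-induced mRNA of p21, had between 166 and 168 CPM in the *WT* DMSO libraries, 453 to 488 CPM in the knockout DMSO libraries and at least 1977 CPM in each library treated with 5-FU. No library had a count on *MIR34A*, *MIR34B* or *MIR34C* (0 in each), whose short hairpins therefore do not check the genotype. The host transcript of miR-34a, *MIR34AHG*, had 4.46 to 5.36 CPM in *WT* DMSO and 15.4 and 17.0 CPM in *WT* 5-FU libraries, and 21.9 to 22.5 CPM in knockout DMSO and 62.7 to 65.8 CPM in knockout 5-FU libraries, without overlap between genotypes. Of 12 markers of colon epithelium, 9 or 10 reached a mean of 1 CPM in each group, with *KRT8*, *KRT18* and *EPCAM* among them, whereas *CDX1* was at 0 in all libraries. Of 8 fibroblast markers, only *COL1A1* reached a mean of 1 CPM in a group, while *DCN* and *LUM* had at most 0.0361 CPM in any library. The summed fibroblast list was at 22.1 to 27.0 CPM in *WT* DMSO, 46.5 to 51.1 CPM in knockout DMSO, 50.0 to 60.5 CPM in *WT* 5-FU and 70.3 to 71.8 CPM in knockout 5-FU libraries. The summed epithelial list was also higher after 5-FU (11589 to 12735 CPM in *WT* and 9007 to 9488 CPM in knockout cells) than in DMSO (5658 to 5999 CPM over both genotypes). Of 6 leukocyte markers, 0 or 1 reached a mean of 1 CPM, with summed levels of 0.83 to 2.80 CPM. The part of these shifts in the results below was not tested.

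BMP ligands such as BMP2 and BMP4 bind receptor serine/threonine kinases that phosphorylate the receptor-activated SMADs 1, 5 and 9, while TGF-beta and activin receptors act through SMADs 2 and 3. Both groups join SMAD4 to regulate genes in the nucleus. *ID1*, *ID2* and *ID3* are classical BMP target genes whose products bind the E proteins and keep them from DNA. *SMAD6* and *SMAD7* encode the inhibitory SMADs, and *BAMBI* encodes a pseudoreceptor that lacks a kinase domain. Since these inhibitors are themselves induced by the pathway, they close a negative feedback loop. In the intestine, BMP signals are high toward the lumen and oppose the renewal of crypt stem cells. HCT116 cells are known for frameshift mutations of *TGFBR2* that go with their microsatellite instability, and the mRNA of this receptor was counted in all groups (26.2 to 50.1 CPM as group means).

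The sequences that tie these genes to the deleted microRNAs and to SMAD proteins were taken from RefSeq (GRCh38.p14) and from the GENCODE 3′ UTRs of the same build. The mature microRNAs that the knockout removes are shown first, with the seed (bases 2 to 8) in capitals. Both are listed 5′ to 3′, miR-34a-5p from chr1:9151735-9151756 (minus strand) and miR-34b-5p from chr11:111512950-111512972 (plus strand), and miR-34c-5p belongs to the same family.
miR-34a-5p: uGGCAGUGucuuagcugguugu
miR-34b-5p: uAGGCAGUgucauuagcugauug
The 3′ UTRs of all 10 genes (296 bases for *BMP4* to 4633 bases for *SMAD3*) were searched for the complement of the miR-34a seed, CACTGCC. It was present in *SMAD7* only, at base 887 of a 3′ UTR of 1519 bases, and the complement of the miR-34b seed, ACTGCCT, overlapped the same place. This stretch of the *SMAD7* 3′ UTR, chr18:48920468-48920496 on the minus strand, is shown with CACTGCC in capitals.
SMAD7 site: aaccagctcagCACTGCCtgctcccatcc
Among all 13108 tested genes with a 3′ UTR, 17.6% held CACTGCC and 15.8% held ACTGCCT, beside 1 of the 10 genes here. A match of letters is a description and no evidence of binding.

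The promoters were searched, from base −250 to base 50 around the start of transcription, for 3 sequences known to be bound by SMAD proteins. RefSeq held 17 such windows for 9 of the 10 genes. The first sequence was the palindrome GTCTAGAC, which reads the same on both strands, and the second was the GC-rich element GGCGCC, which also reads the same on both strands. The palindrome was found in 71 of 35116 promoters (0.202%), among them that of *SMAD6*, where it lies at bases −12 to −5 before the start. These are the 60 bases before the start of *SMAD6* (chr15:66702176-66702235, plus strand), with the palindrome in capitals.
SMAD6 promoter: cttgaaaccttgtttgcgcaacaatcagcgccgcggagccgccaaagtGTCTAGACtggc
GGCGCC was found in 19.2% of all promoters and in those of *SMAD3*, *BAMBI* and *BMP4*. For each of them, 60 bases with the first copy in capitals are shown, *SMAD3* at chr15:67065440-67065499 (plus strand), *BAMBI* at chr10:28677286-28677345 (plus strand) and *BMP4* at chr14:53955241-53955300 (minus strand).
SMAD3 promoter: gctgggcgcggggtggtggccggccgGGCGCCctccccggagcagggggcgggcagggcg
BAMBI promoter: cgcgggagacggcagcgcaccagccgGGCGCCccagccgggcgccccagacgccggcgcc
BMP4 promoter: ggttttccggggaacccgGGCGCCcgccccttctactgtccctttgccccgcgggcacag
*BAMBI* held 3 copies, *SMAD3* and *BMP4* held 2 each. A longer element, GGCGCC followed after 5 further bases by GTCT, was in none of the 17 windows on either strand and in 0.103% of all promoters. No windows were searched for *BMP2*.

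The genes spanned a wide range of levels. Per kilobase of exon sequence, *ID1* was the most abundant in *WT* DMSO cells with a level of 206 CPM per kb, followed by *ID3* (52.0), *ID2* (20.6), *BMP4* (18.5) and *SMAD3* (11.6). The inhibitors were expressed at lower levels per kilobase, *BAMBI* at 2.64, *SMAD6* at 1.53 and *SMAD7* at 0.998 CPM per kb, and *SMAD9* was lowest at 0.615. *BMP2* was the exception, with 0 counts in 9 of 11 libraries and 1 and 3 counts in the 2 *WT* 5-FU libraries. A count of 0 allows up to 3 counts, or 0.0851 to 0.131 CPM in the 9 libraries at 0, so that *BMP2* was not detectable at this depth in 3 of the 4 groups. *ID1* stayed first and *SMAD9* last of the 9 detected genes in all groups. The levels are shares of the RNA of a library, in which less RNA per cell and fewer cells that express a gene cannot be told apart.

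**Figure D1:**
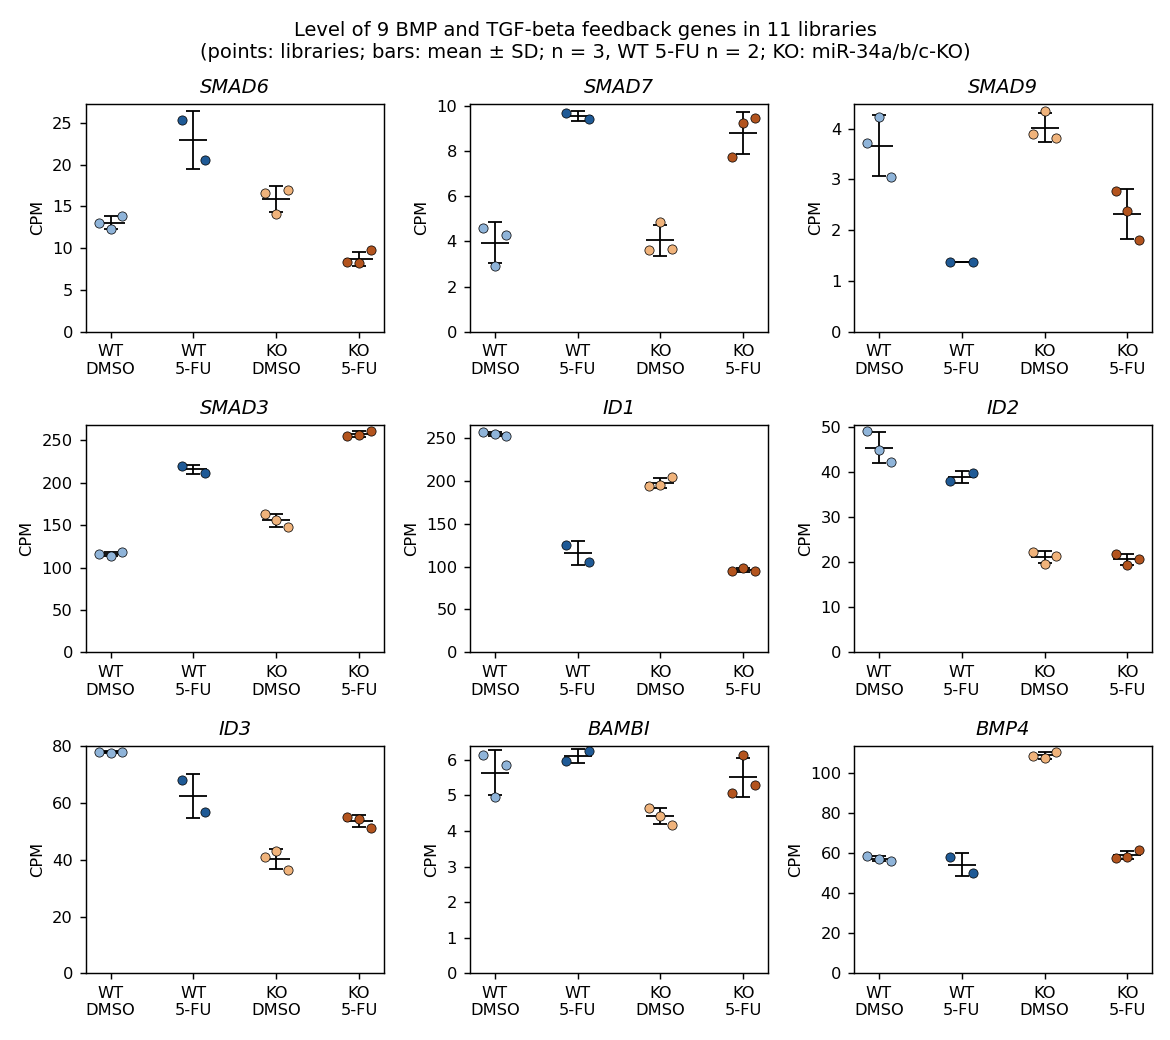
Level in CPM (vertical axis, starting at 0) of the 9 tested genes in each of 11 libraries (points) by group, with the mean and SD as bars. *SMAD6* is highest in *WT* 5-FU and lowest in knockout 5-FU cells, *BMP4* is high in knockout DMSO cells (107 to 111 CPM) and between 50.4 and 61.5 CPM elsewhere, and *ID2* separates by genotype.

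*SMAD6* (chr15:66702236-66782849, plus strand), the inhibitory SMAD that preferentially restrains BMP receptors, is described first. Its level was 13.1, 12.3 and 13.8 CPM in the *WT* DMSO libraries and 25.4 and 20.5 CPM in those treated with 5-FU. In knockout cells it was 16.6, 14.1 and 17.0 CPM in DMSO and 8.28, 8.21 and 9.73 CPM in 5-FU. Hence all 4 groups lay apart from each other, in the order knockout 5-FU, *WT* DMSO, knockout DMSO and *WT* 5-FU, and the highest group mean was 2.63 times the lowest. The log2 fold change after 5-FU was 0.81 (SE 0.11) in *WT* and −0.87 (SE 0.11) in knockout cells, a difference (knockout minus *WT*) of −1.68 (SE 0.15). Between genotypes, it was 0.28 (SE 0.10) in DMSO and −1.40 (SE 0.11) in 5-FU. The value in *WT* cells was 0.64 without *WT* 5-FU replicate 2 and 0.96 without replicate 3. With 1 factor of unwanted variation removed by RUVg, it turned to −1.17 (SE 1.73), whereas the difference between the genotypes was −1.45. RUVg also turned the value between genotypes in DMSO, to −0.032 (SE 0.29). The study used RUVg too, but its control genes are not given in the sources used here. The factor drawn here was itself 98.2% between the treatments.

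*SMAD3*, the receptor-activated SMAD of the TGF-beta branch, lies 281 kb from *SMAD6* on the same strand (chr15:67063763-67195173) and showed another pattern. It had 117, 113 and 118 CPM in *WT* DMSO, 163, 156 and 147 CPM in knockout DMSO, 219 and 212 CPM in *WT* 5-FU and 255, 256 and 261 CPM in knockout 5-FU. All 4 groups were apart, with the treated libraries above the untreated ones in both genotypes. The 40 tested neighbors of *SMAD6* (20 on each side) had a median log2 fold change between genotypes of −0.18 in DMSO and −0.10 in 5-FU, and the lowest of them in 5-FU was at −0.53 beside the −1.40 of *SMAD6*.

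After treatment of *WT* cells with 5-FU, *SMAD7* and *SMAD3* were higher and *SMAD9* and *ID1* were lower. These are 2 higher and 2 lower of the 8 tested genes other than *SMAD6*, beside 18.5% higher and 9.38% lower of all genes tested. Their median log2 fold change was −0.15, compared with 0.03 over all genes. In knockout cells the same 4 genes and in addition *BMP4* passed, 2 higher and 3 lower, beside 13.3% higher and 12% lower of all genes. Here their median was 0.14 and that of all genes −0.06. A list of 8 chosen genes gets no test of its own, and the description below concerns the single genes.

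*SMAD7* (chr18:48919853-48950965, minus strand), which encodes the inhibitory SMAD that blocks both TGF-beta and BMP receptors, rose after 5-FU in both genotypes. Its levels were 4.62, 2.91 and 4.29 CPM in *WT* and 3.63, 4.85 and 3.69 CPM in knockout cells in DMSO. In 5-FU they were 9.72 and 9.43 CPM in *WT* and 7.77, 9.26 and 9.48 CPM in knockout cells. Each treated library was above each untreated one, whereas the genotypes overlapped under both treatments. The log2 fold change was 1.26 (SE 0.16, edgeR FDR 5.04e-06) in *WT* and 1.13 (SE 0.15, edgeR FDR 9.47e-06) in knockout cells, and the difference between them was −0.14 (SE 0.23, edgeR FDR 0.695; 95% interval −0.62 to 0.34). *SMAD7* is the only one of the 10 genes with the seed match of miR-34a shown above. Its mRNA differed between knockout and *WT* cells by 0.02 on the log2 scale in DMSO (95% interval −0.33 to 0.37, edgeR FDR 0.936) and by −0.12 in 5-FU (95% interval −0.44 to 0.21, edgeR FDR 0.557).

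*SMAD3* rose after 5-FU by 0.89 on the log2 scale in *WT* cells (SE 0.05, edgeR FDR 5.19e-10) and by 0.73 in knockout cells (SE 0.05, edgeR FDR 1.99e-09). Both responses differed by −0.17 (95% interval −0.32 to −0.02, edgeR FDR 0.0952). In knockout cells *SMAD3* was also above *WT* cells, by 0.42 in DMSO (edgeR FDR 3.1e-06) and by 0.25 in 5-FU, in both cases with less than the required fold change.

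*SMAD9* (chr13:36844831-36920887, minus strand), also known as SMAD8, encodes a receptor-activated SMAD of the BMP branch and is itself a BMP target. It fell after 5-FU in both genotypes. The *WT* libraries had 3.72, 4.24 and 3.04 CPM in DMSO and 1.37 CPM in each of the 2 libraries treated with 5-FU. The knockout libraries had 3.89, 4.34 and 3.82 CPM in DMSO and 2.77, 2.38 and 1.80 CPM in 5-FU. The treated libraries were below all untreated ones in both genotypes, and those of *WT* cells were lowest. On the log2 scale, it changed by −1.40 (SE 0.21, edgeR FDR 3.19e-05) in *WT* and −0.79 (SE 0.18, edgeR FDR 0.00138) in knockout cells, and a difference between these responses did not pass (0.62, SE 0.28, edgeR FDR 0.119). With the fold change of 1.5 made part of the test (glmTreat of edgeR), the call in knockout cells was lost (FDR 0.249).

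*ID1* (chr20:31605283-31606515, plus strand) fell in both genotypes as well. It had 257, 255 and 252 CPM in *WT* DMSO libraries and 125 and 105 CPM after 5-FU. In knockout cells, it had 194, 195 and 204 CPM in DMSO and 95.0, 98.2 and 94.5 CPM after 5-FU. The 4 groups did not overlap. On the log2 scale, the change was −1.14 in *WT* (SE 0.06, edgeR FDR 3.04e-10) and −1.04 in knockout cells (SE 0.06, edgeR FDR 1.77e-10), and the difference was 0.10 (95% interval −0.08 to 0.28, edgeR FDR 0.424). Knockout cells also differed from *WT* cells, by −0.36 in DMSO (SE 0.06, edgeR FDR 5.91e-05) and −0.27 in 5-FU (SE 0.06, edgeR FDR 0.00235). Both values were short of the required fold change.

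The 5-FU calls of *SMAD7*, *SMAD3*, *SMAD9* and *ID1*, and that of *BMP4* in knockout cells, were not retained when RUVg was used in the model, with 0 of these genes called in either genotype. The standard errors were then larger than without RUVg, from 0.71 to 3.52. *ID1* was at −3.23 in *WT* (SE 0.81, edgeR FDR 0.128) and −2.89 in knockout cells (SE 0.72, edgeR FDR 0.0853), and *BMP4* at −1.86 in knockout cells (SE 0.82, edgeR FDR 0.239), each further from 0 than without RUVg. *SMAD7* turned to −1.84 in *WT* and −1.63 in knockout cells, *SMAD9* was at −0.43 and 0.07, and *SMAD3* at 0.65 and 0.51. The RUVg factor was itself 98.2% between the treatments. With the *WT* DMSO library that is also deposited as *WT* 5-FU replicate 1 kept under that label, the 4 calls in *WT* cells were lost as well (FDR 0.0634 to 0.0777, edgeR).

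**Figure D2:**
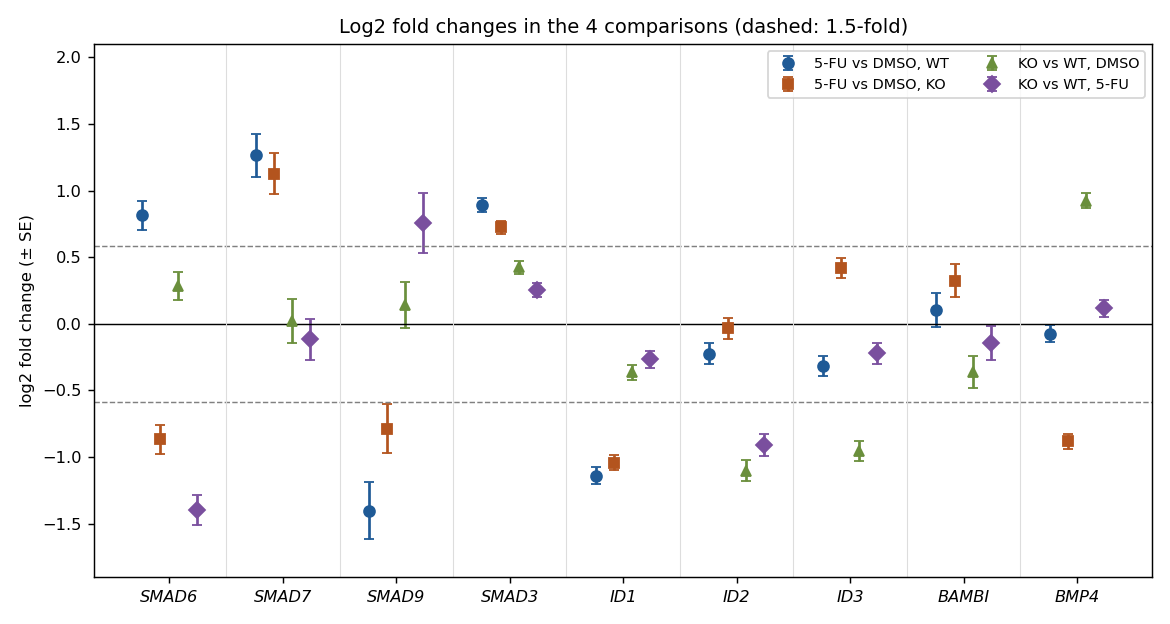
Log2 fold change (vertical axis, ± SE) of each of the 9 tested genes in the 4 comparisons, with dashed lines at a fold change of 1.5 in either direction. *SMAD7* and *SMAD3* lie above and *SMAD9* and *ID1* below these lines for 5-FU in both genotypes, and the 2 values of *SMAD6* for 5-FU have opposite signs.

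Of the BMP target genes *ID2* and *ID3*, neither was called after 5-FU, but both were lower in knockout than in *WT* cells in DMSO. In this comparison, *BMP4* was higher, so that 1 gene was called higher and 2 lower of the 8 tested, beside 9.1% higher and 4.97% lower of all genes. Their median log2 fold change was −0.17, and that of all genes was 0.03. In 5-FU, *SMAD9* was called higher and *ID2* lower (1 and 1 of 8), beside 7.58% higher and 10.6% lower of all genes, with a median of −0.13 compared with −0.05.

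*ID2* (chr2:8678845-8684461, plus strand) had 49.1, 45.0 and 42.4 CPM in *WT* DMSO and 38.0 and 40.0 CPM in *WT* 5-FU libraries. In knockout cells, it had 22.3, 19.8 and 21.5 CPM in DMSO and 22.0, 19.4 and 20.8 CPM in 5-FU. All libraries of knockout cells were below all of *WT* cells, and those of knockout cells overlapped between the treatments. The log2 fold change between genotypes was −1.10 in DMSO (SE 0.08, edgeR FDR 9.34e-09) and −0.91 in 5-FU (SE 0.08, edgeR FDR 2.53e-07). For 5-FU, it was −0.22 in *WT* (edgeR FDR 0.0256) and −0.03 in knockout cells (95% interval −0.20 to 0.13, edgeR FDR 0.735), in both cases short of the required fold change. The lncRNA *ID2-AS1* overlaps 6.55% of the exon sequence of *ID2* on the opposite strand and had 33 to 246 counts per library. As the sources used here do not state strand-specific counting, reads in this overlap cannot be told apart. The 36 tested neighbors of *ID2* had a median of −0.10 in DMSO and −0.16 in 5-FU.

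*ID3* (chr1:23557926-23559501, minus strand) had 78.0, 77.5 and 77.9 CPM in *WT* DMSO, and 40.9, 43.2 and 36.5 CPM in knockout DMSO libraries. In 5-FU, it had 67.9 and 56.8 CPM in *WT* and 55.1, 54.5 and 51.2 CPM in knockout cells. The genotypes were far apart in DMSO and close to each other in 5-FU. Knockout cells differed from *WT* cells by −0.95 on the log2 scale in DMSO (SE 0.07, edgeR FDR 2.84e-08) and −0.22 in 5-FU (edgeR FDR 0.0285). The response to 5-FU was −0.32 in *WT* (edgeR FDR 0.00236) and 0.42 in knockout cells (edgeR FDR 0.000124), both short of the required fold change. These responses differed by 0.73 (SE 0.11, edgeR FDR 0.000142).

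By these calls, which leave out differences below the required fold change, *ID1* changed with treatment in both genotypes, *ID2* with genotype under both treatments and *ID3* with genotype in DMSO. Their summed level was 378 ± 6.07 CPM (SD, n = 3) in *WT* DMSO, 259 ± 2.87 CPM (SD, n = 3) in knockout DMSO, 217 ± 20.5 CPM (SD, n = 2) in *WT* 5-FU and 170 ± 3.22 CPM (SD, n = 3) in knockout 5-FU cells, of which *ID1* made up 67.3%, 76.3%, 53.2% and 56.3%. Of the E proteins, the binding partners of ID proteins, 2 of 3 were tested and none was called in any comparison.

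*BMP4* (chr14:53949736-53958761, minus strand), a BMP ligand, was the gene called higher in knockout than in *WT* cells in DMSO. It had 58.7, 57.3 and 56.2 CPM in *WT* DMSO, and 109, 107 and 111 CPM in knockout DMSO libraries. In 5-FU, it had 58.3 and 50.4 CPM in *WT* and 57.8, 57.9 and 61.5 CPM in knockout cells. The knockout DMSO libraries stood apart from all others, and the other 3 groups overlapped with a neighbor in the order of levels. Between genotypes, *BMP4* changed by 0.92 on the log2 scale in DMSO (SE 0.06, edgeR FDR 2.08e-09) and 0.12 in 5-FU (95% interval −0.02 to 0.25, edgeR FDR 0.138). The response to 5-FU was −0.08 in *WT* (95% interval −0.21 to 0.06, edgeR FDR 0.321) and −0.88 in knockout cells (SE 0.06, edgeR FDR 1.28e-09). The responses differed by −0.81 (SE 0.08, edgeR FDR 6.04e-06). A lncRNA of the annotation, not analysed here, overlaps 16.3% of the exon sequence of *BMP4* on the opposite strand. The 40 tested neighbors of *BMP4* had a median log2 fold change of 0.00 in DMSO and 0.23 in 5-FU.

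The difference between the responses was thus called for *ID3* (higher) and *BMP4* (lower), 1 and 1 of the 8 tested genes, beside 3.42% higher and 6.66% lower of all genes tested. The median difference of the 8 genes was 0.14 and that of all genes −0.09. Both calls were made at FDR < 0.05 against no difference and with a difference of more than 1.5-fold. With glmTreat, neither passed (FDR 0.498 for *ID3* and 0.0942 for *BMP4*). Both differences involve the knockout DMSO libraries, which also enter the comparison of genotypes in DMSO.

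*SMAD9* was called higher in knockout than in *WT* cells in 5-FU, with a log2 fold change of 0.76 (SE 0.22, edgeR FDR 0.0101), compared with 0.14 in DMSO (95% interval −0.23 to 0.51). This call rested on knockout 5-FU replicate 1, without which it was 0.61 (edgeR FDR 0.0513), and it was also lost with glmTreat (edgeR FDR 0.559).

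*BAMBI* (chr10:28677510-28682932, plus strand) had the smallest range among the 9 genes, with a highest group mean 1.38 times the lowest, and was called in no comparison. It had 6.14, 4.94 and 5.85 CPM in *WT* DMSO, 4.64, 4.43 and 4.18 CPM in knockout DMSO, 5.96 and 6.24 CPM in *WT* 5-FU and 5.07, 6.13 and 5.30 CPM in knockout 5-FU libraries. Only the knockout DMSO libraries lay below all others. The log2 fold change between genotypes was −0.36 in DMSO (95% interval −0.62 to −0.10, edgeR FDR 0.0237), and the response of knockout cells to 5-FU was 0.32 (95% interval 0.06 to 0.59, edgeR FDR 0.0343).

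**Figure D3:**
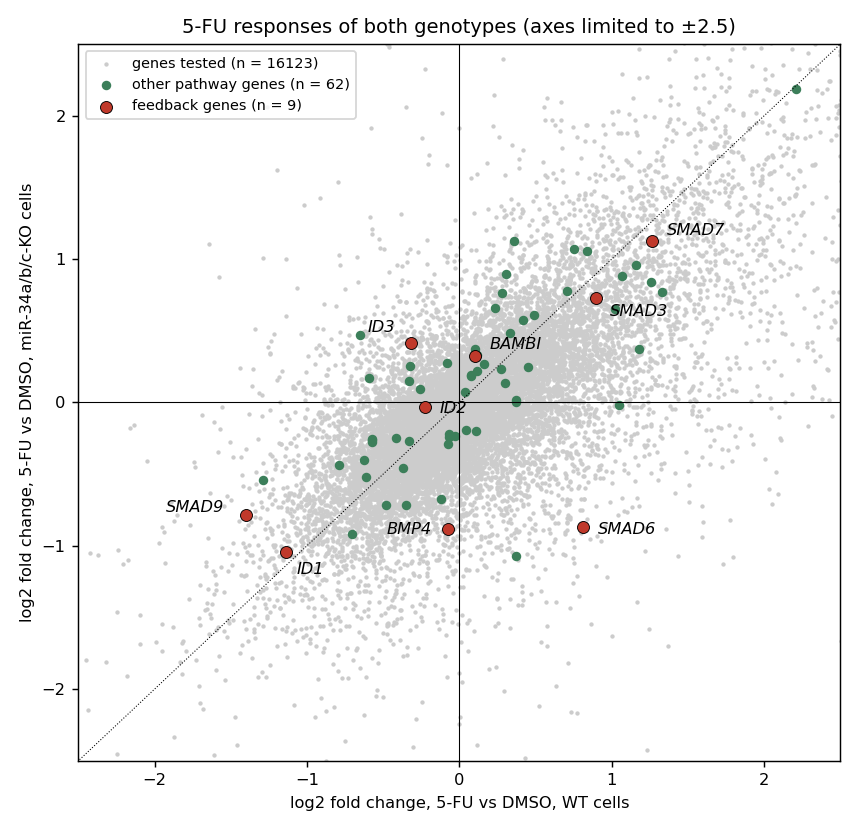
Log2 fold change after 5-FU in *WT* (horizontal axis) and in knockout cells (vertical axis) for the genes tested (gray), the other pathway genes (green) and the 9 feedback genes (red), with a dotted line where both are equal. The axes end at ±2.5, outside of which 522 of 16123 genes and 5 of the 62 other pathway genes lie, and *SMAD6* is the red point in the lower right quadrant.

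The other genes of the pathway were followed in lists of 96 genes in all, of which 62 were tested. Among them, *FST*, *COL4A1* and *SNAI2* passed the filter of 20 counts only through 5-FU libraries, and *TGFB2* only through knockout libraries. The counts of calls below include these genes. After 5-FU, 15 of them were higher (24.2%) and 7 lower (11.3%) in *WT*, beside 18.5% and 9.38% of all genes tested. In knockout cells, 18 were higher (29%) and 5 lower (8.06%), beside 13.3% and 12% of all genes. Between genotypes, 8 were higher (12.9%) and 5 lower (8.06%) in knockout cells in DMSO, beside 9.1% and 4.97% of all genes, and 12 were higher (19.4%) and 5 lower (8.06%) in 5-FU, beside 7.58% and 10.6%. Their median log2 fold changes for 5-FU were 0.11 in *WT* and 0.20 in knockout cells (0.03 and −0.06 over all genes), and those for the genotype were 0.06 in DMSO and 0.10 in 5-FU (0.03 and −0.05 over all genes). RUVg left 0 of the 5-FU calls in either genotype.

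Among the BMP-type ligands (5 of 15 tested), *BMP7* was higher after 5-FU in both genotypes, with log2 fold changes of 0.75 (SE 0.09, edgeR FDR 1.4e-06) in *WT* and 1.07 (SE 0.08, edgeR FDR 1.25e-08) in knockout cells. *BMP6* was lower after 5-FU in both genotypes (−0.71 and −0.92) and lower in knockout cells under both treatments (−0.81 and −1.02). *BMP8B* was lower after 5-FU in *WT* cells (−1.29, SE 0.09, edgeR FDR 6.64e-09) and at −0.54 in knockout cells, and these responses differed (0.74, SE 0.12, edgeR FDR 0.000401). Its near-identical neighbor in sequence, *BMP8A*, was higher in knockout cells in DMSO (0.59) and in 5-FU (1.17), and how reads shared by both genes were counted is not given in the sources used here.

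Of the TGF-beta and activin ligands (4 of 11 tested), *TGFB2* was the gene that differed most between genotypes. It was expressed at 0.25 ± 0.017 CPM (SD, n = 3; 6 to 8 counts) in *WT* and at 4.43 ± 0.86 CPM (SD, n = 3; 92 to 130 counts) in knockout cells in DMSO, a log2 fold change of 4.13 (SE 0.28). In 5-FU, the log2 fold change was 2.70 (SE 0.32), with 6 and 16 counts in the *WT* libraries. As *TGFB2* passed the filter of 20 counts only through knockout libraries, these 2 values are a description without a test. After 5-FU, *TGFB2* was lower in knockout cells (−1.07, SE 0.21, edgeR FDR 0.000351). *TGFB3* was higher after 5-FU in *WT* (1.26) and in knockout cells (0.84), and so was *INHBB*, which encodes an activin subunit (1.16 and 0.96).

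Of the receptors and co-receptors, 14 of 17 were tested. *TGFBR2*, the type II receptor of TGF-beta, was lower in knockout than in *WT* cells in 5-FU (−0.82, SE 0.07, edgeR FDR 2.21e-07), and it was lower after 5-FU in knockout cells (−0.67, SE 0.07, edgeR FDR 3.23e-07). Its partner *TGFBR1* was higher after 5-FU in knockout cells (0.76, SE 0.07, edgeR FDR 1.03e-07) and at 0.28 in *WT* cells, short of the required fold change. The BMP receptor *BMPR1A* was lower after 5-FU in *WT* cells (−0.63) and at −0.40 in knockout cells. The activin receptor *ACVR2A* was lower after 5-FU in knockout cells (−0.71) and at −0.48 in *WT* cells. The values of −0.40 and −0.48 were short of the required fold change. For neither gene was the difference between the responses called (edgeR FDR 0.128 and 0.216). *ACVRL1* and *ENG*, better known from endothelial cells, were at or below 2.94 CPM as group means. *ENG* was higher in knockout than in *WT* cells in DMSO (0.96, SE 0.25, edgeR FDR 0.00479) and in 5-FU (0.74, SE 0.28, edgeR FDR 0.0369). In 5-FU, *ACVRL1* was lower in knockout than in *WT* cells (−1.45, SE 0.30, edgeR FDR 0.000861). *ACVRL1* was higher after 5-FU in *WT* cells (1.05, SE 0.29, edgeR FDR 0.00539), where the summed level of 4 endothelial markers was 6.20 to 6.61 CPM compared with 1.28 to 2.06 CPM in the other groups, mainly by *VWF*. *PECAM1* was at or below 0.308 CPM in every library. The part of this in the *ACVRL1* values was not tested.

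Of the signal-transmitting SMADs, all 4 were tested. *SMAD1*, of the BMP branch, was lower after 5-FU in *WT* cells (−0.61, SE 0.08, edgeR FDR 6.14e-06) and at −0.52 in knockout cells, which is short of the required fold change. *SMAD5*, of the same branch, was higher after 5-FU in knockout cells (0.66, SE 0.06, edgeR FDR 1.09e-07) and at 0.23 in *WT* cells. *SMAD2* and the shared partner *SMAD4* were called in no comparison.

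Secreted antagonists (6 of 15 tested) included *FST*, which encodes the activin antagonist follistatin. It was among the genes at very low counts (2 to 6 per library in *WT* DMSO) and reached 0.856 ± 0.15 CPM (SD, n = 2) in *WT* and 3.73 ± 0.29 CPM (SD, n = 3) in knockout cells after 5-FU. Its log2 fold change after 5-FU was 2.54 (SE 0.48) in *WT* and 3.08 (SE 0.33) in knockout cells. As *FST* passed the filter of 20 counts only through the treated libraries, these 2 values are a description without a test. *NOG*, which encodes the BMP antagonist noggin, was higher after 5-FU in *WT* cells (1.02, SE 0.36, edgeR FDR 0.0217). In knockout cells it was at 0.65 (SE 0.37, edgeR FDR 0.137), and the difference between the responses was not called (edgeR FDR 0.64). Its counts were also low, at 22 to 36 in *WT* DMSO and 6 to 32 in knockout DMSO libraries. *TWSG1* was lower after 5-FU in *WT* cells (−0.79) and at −0.43 in knockout cells. It was higher in knockout than in *WT* cells in 5-FU (0.83) and at 0.47 in DMSO. The values of −0.43 and 0.47 were short of the required fold change, and the difference between the responses was not called (edgeR FDR 0.0667).

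Among the intracellular negative regulators (11 of 11 tested), *NEDD4L*, a ubiquitin ligase that acts on activated SMADs, was higher after 5-FU in *WT* (0.71, SE 0.06, edgeR FDR 1.65e-08) and in knockout cells (0.78, SE 0.05, edgeR FDR 1.43e-09). *PMEPA1*, a TGF-beta-induced inhibitor, was higher in knockout cells in DMSO (1.33) and in 5-FU (1.55). *SMURF2*, a ubiquitin ligase that the SMAD7 protein recruits to receptors, was lower in knockout than in *WT* cells in 5-FU (−0.76, SE 0.06, edgeR FDR 7.19e-08). In DMSO it was at −0.56, short of the required fold change. *PPM1A*, a phosphatase of SMADs, was higher after 5-FU in knockout cells (0.90, SE 0.06, edgeR FDR 2.2e-09).

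Of the other BMP target genes (5 of 8 tested), 3 were higher and 1 lower after 5-FU in *WT* (18.5% and 9.38% of all genes), and 2 were higher and 0 lower in knockout cells (13.3% and 12% of all genes). *MSX2*, a homeobox gene, was higher after 5-FU in both genotypes (1.07 and 0.88) and higher in knockout cells under both treatments (1.32 and 1.14). *MSX1* was higher after 5-FU in *WT* cells (1.18, SE 0.07, edgeR FDR 3.13e-10). *RUNX2* was lower in knockout cells in DMSO (−1.77, SE 0.24, edgeR FDR 2.22e-05) and in 5-FU (−2.32, SE 0.23, edgeR FDR 4.83e-07), and higher after 5-FU in both genotypes (1.33 and 0.77). *GATA2* was lower in knockout cells in DMSO (−1.02).

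Of the TGF-beta target genes (11 of 12 tested), 5 were higher and 1 lower after 5-FU in *WT*, beside 18.5% and 9.38% of all genes, and 7 were higher and 0 lower in knockout cells, beside 13.3% and 12% of all genes. *COL4A1* and *SNAI2* had at most 9 counts in each DMSO library and 37 to 87 counts in each library treated with 5-FU. *CDKN2B*, which encodes the CDK inhibitor p15, was higher in knockout cells in DMSO (1.43, SE 0.08, edgeR FDR 1.12e-09) and in 5-FU (1.55, SE 0.09, edgeR FDR 1.35e-09).

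For 7 of the 62 genes, the responses to 5-FU differed between the genotypes, with 5 higher (8.06%) and 2 lower (3.23%) in knockout cells, beside 3.42% and 6.66% of all genes tested. They are all named here after their values were seen. *BMP8B*, *PPM1A*, *GATA2*, *ANGPTL4* and *KLF11* had the higher response in knockout cells (by 0.59 to 1.12 on the log2 scale), and *TGFB2* and *MSX1* the lower one (−1.44 and −0.81).

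The genes whose levels over the 4 groups were most like those of *SMAD6* were sought among 14000 genes with a mean of at least 1 CPM over the 11 libraries. The measure was the root-mean-square difference over the 4 groups between mean log2 CPM, each gene centered on its own mean. The nearest was the lncRNA *LINC01910* (0.0317), followed by *CXXC4* (0.0606), *PTK6* (0.0626) and *B3GALT5* (0.0985). *LINC01910* had group means of 1.07 CPM in *WT* DMSO, 1.30 CPM in knockout DMSO, 2.09 CPM in *WT* 5-FU and 0.714 CPM in knockout 5-FU cells. *PTK6*, which encodes a non-receptor tyrosine kinase of epithelia, had 9.33, 11.6, 16.2 and 6.89 CPM in the same order. None of the other 9 feedback genes was among these 4. Since they were chosen by this likeness over 4 group means, they are named without a test.

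**Figure D4:**
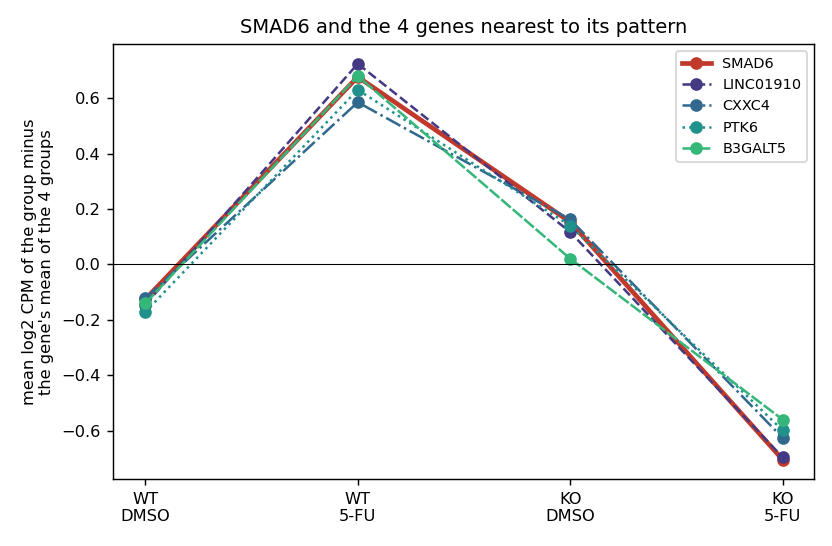
Mean log2 CPM of each group minus the mean of the gene over the 4 groups (vertical axis) for *SMAD6* (red line) and the 4 genes nearest to it, by group. All 5 genes are highest in *WT* 5-FU and lowest in knockout 5-FU cells, and the lines join groups to make each pattern visible and stand for no time course.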

How the data were processed

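RNA-Seq counts of HCT116 cells in 4 groups of 3 libraries were used. Per the methods of the study, the authors mapped paired-end reads to GRCh38/hg38 with CLC Genomics Workbench. The counts they deposited are whole numbers per gene symbol and had not been normalized. Samples were grouped by their titles, and the copied library was set aside. A gene needed 20 counts in 1 or more libraries to be tested. With upper-quartile scaling, a single model with 4 group means was fitted in edgeR 4.0.16 under R 4.3.3 (glmQLFit and glmQLFTest, two-sided). It gave the 4 comparisons that change 1 factor and the difference between the 5-FU responses (interaction). The calling thresholds are those of the study. Its RUVg control genes are not given in the sources used here, so as an alternative 1 factor was drawn from 11123 genes, leaving out the 5000 with the strongest evidence of change.

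Other alternatives were TMM factors, DESeq2 1.42.0, 2 filters, no minimum fold change, glmTreat, a replicate block and leaving out each library. Log2 CPM used a prior count of 2. Total counts of 22831415 to 39064210 per library set the precision of low genes, and edgeR put the biological coefficient of variation at 6.72%. Limits for a count of 0 cover counting error only. The fit was tested on simulated data. All 10 genes could be named in every comparison, but not every value that was not called is given, and *BMP2* was not tested. Of each pathway list, up to 3 called genes with the largest absolute fold change per comparison could be named, all members of lists with 4 genes, and any counted group of few genes. The genes, lists and tests were chosen with earlier results of these data known. Sequences were read from RefSeq and GENCODE release 44 (GRCh38). For 2 genes that this rule would name, values are not reported here.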

Additional observations from a re-analysis of the deposited data

Results flagged for a closer look

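The responses to 5-FU differed between the genotypes for 2 of the tested genes by the interaction of edgeR. For *ID3* the difference (knockout minus *WT*) was 0.73 on the log2 scale (SE 0.11, edgeR FDR 0.000142), and for *BMP4* it was −0.81 (SE 0.08, edgeR FDR 6.04e-06). For *SMAD6* the difference was −1.68. It was not tested because the gene had been noticed for it, and it is listed here because both treated *WT* libraries were above all untreated *WT* libraries, while all treated knockout libraries were below the untreated ones.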

How the results depend on the processing

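Of the 16 calls among the feedback genes, all were kept with TMM factors, DESeq2 and both filters, 12 with glmTreat, 7 with RUVg and 11 with the copied library kept under its label. RUVg added 1 call, *ID1* between genotypes in DMSO (−0.70, edgeR FDR 0.00449). The copied library added 1 call, *ID1* between genotypes in 5-FU (−0.74, edgeR FDR 0.03). Of the 11 fits without 1 library, 10 kept all calls, and members called in 5-FU between genotypes ranged from 1 to 2, the lower number without knockout 5-FU replicate 1, by loss of *SMAD9*. No pairing by the replicate numbers of the titles was seen (correlation of same-numbered deviations −0.0914 to 0.0782, 15 pairs). As deviations from the mean of few libraries depend on each other, this check cannot exclude pairing. With the replicate block, 3, 2, 4 and 5 feedback genes were called in the comparison of genotypes in DMSO and in 5-FU and for 5-FU in *WT* and knockout cells, the same genes as without it. Replicate numbers taken from the column headers, added after seeing the data, gave these counts too.

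Without a minimum fold change, 6 and 5 feedback genes differed between genotypes in DMSO and 5-FU, and 37, 40, 44, 48 and 20 other pathway genes passed in the 4 comparisons and the interaction. With glmTreat these were 6, 11, 13, 13 and 1, with 1 feedback gene left between genotypes in 5-FU and 0 in the interaction. For 5-FU, RUVg left 0 feedback genes and 0 pathway genes in either genotype, and the copied library left 0 and 0 in *WT* cells and 3 pathway genes in the interaction.

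Directions turned, in values that were not called unless stated, as follows. *SMAD6*, which was not tested, became −0.032 with RUVg between genotypes in DMSO. *SMAD7* between genotypes in DMSO became −0.00421 with DESeq2, −0.00666 without a filter, −0.48 with RUVg and ranged from −0.14 to 0.14 without 1 library, and in 5-FU became 0.18 with the copied library. RUVg turned the 5-FU response in *WT* cells of *SMAD6* (−1.17), *SMAD7* (called without RUVg, −1.84), *ID2* (1.64) and *BAMBI* (−1.16), and in knockout cells of *SMAD7* (called without RUVg, −1.63), *SMAD9* (called without RUVg, 0.073), *ID2* (1.61), *ID3* (−1.70) and *BAMBI* (−0.80). *ID2* in knockout cells also became 0.00952 with TMM factors and 0.019 with DESeq2, and ranged from −0.080 to 0.012 without 1 library. *BMP4* in *WT* cells ranged from −0.19 to 0.026. In the interaction, RUVg gave 0.22 for *SMAD7* and −0.024 for *ID2*, and the copied library gave 0.15 for *SMAD7*, 0.066 for *SMAD3* and −0.38 for *ID1*. Without 1 library, *SMAD7* ranged from −0.26 to 0.021 and *ID1* from −0.022 to 0.23. The causes were not tested. The depth limits *BMP2* and the pathway genes with few counts.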
